A study of Homo sapiens with 56 samples.

Results

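The 42 genes described here encode the proteins that carry a cell from G1 into S phase and copy its DNA. They were chosen by name for these functions, and all 42 had a probe set among the 11963 genes measured. Where a gene had several probe sets, the brightest by mean level stood for it. By role they divide into 12 licensing genes, 6 that control the G1/S step, 4 that activate the helicase, 5 polymerase genes, 7 clamp and fork genes, 5 for nucleotide supply and 3 for histones and chromatin assembly. Transcript levels were measured on 56 Affymetrix arrays of PEO1 and PEO4, established cell lines from high-grade serous ovarian cancer. Results describe these lines in culture, and the lines are not taken as separate patients. Cells of both lines grew for 3 days in medium with charcoal-stripped serum, which removes steroid hormones. One set of 4 arrays in each line came from cells at 0 h with no treatment given in the labels. The others came from cells treated for 3 h with ethanol vehicle, with 1 nM estradiol (E2), with 1 µM fulvestrant (ICI), with 1 µM 4-hydroxytamoxifen (4OHT), with ICI and E2 together, or with 4OHT and E2 together. This made 14 groups of 4 arrays, lettered A to D in PEO1 and numbered 1 to 4 in PEO4. Fulvestrant is a steroidal estrogen receptor antagonist built on estradiol with a long added side chain, and 4OHT is a triphenylethylene and a selective modulator of the same receptor.

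Before S phase, the origin recognition complex (ORC), CDC6 and CDT1 load the ring-shaped MCM helicase onto replication origins, a step called licensing, which geminin blocks after S phase begins. Cyclin E with its kinase, the phosphatase CDC25A that activates it, and E2F transcription factors drive the passage from G1 into S phase, and E2F factors turn on many replication genes. The kinase CDC7 then helps turn the loaded helicase into an active one together with CDC45, MCM10 and the GINS complex, after which primase, polymerases, the PCNA clamp and the enzymes of deoxynucleotide synthesis copy the DNA. In estrogen receptor-positive breast cancer cells, estradiol is known to promote entry into S phase and tamoxifen to slow it.

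E2F factors bind short GC-rich elements, so the promoters were searched for the letters TTTCCCGC, TTTGGCGC, TTTCGCGC and TTTGCCGC on both strands. TTTGGCGC and TTTCGCGC on opposite strands can overlap, and a gene was counted once. RefSeq promoter windows of 300 bases on GRCh38.p14, from 250 bases before to 50 after the start of transcription, were at hand for 38 members, and CCNE2, MCM4, MCM5 and RPA2 had no entry. Such a match stood in 20 of the 38 (52.6%), against 1090 of 27305 genes with a window (3.99%). The cell cycle homology element, spelled TTTGAA on either strand, stood in 3 of the 38 (E2F3, RRM1 and UNG, 7.9%), against 18.2% of all genes. Stretches of 100 bases are shown for 6 genes that fell with 4OHT in PEO1, both without and with E2, and that hold an E2F match ahead of the start. They lie at chr3:48188418-48188517 (CDC25A, minus strand), chr1:91501012-91501111 (CDC7, plus), chr16:85688955-85689054 (GINS2, minus), chrX:24693735-24693834 (POLA1, plus), chr11:65261862-65261961 (POLA2, plus) and chr12:109098063-109098162 (UNG, plus). Each is written 5′ to 3′ on the gene's strand, with the matched letters in capitals.
CDC25A: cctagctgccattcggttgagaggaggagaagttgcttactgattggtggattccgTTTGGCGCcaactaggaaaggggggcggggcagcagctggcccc
CDC7: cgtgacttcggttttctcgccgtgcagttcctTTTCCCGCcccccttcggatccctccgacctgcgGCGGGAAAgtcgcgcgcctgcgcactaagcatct
GINS2: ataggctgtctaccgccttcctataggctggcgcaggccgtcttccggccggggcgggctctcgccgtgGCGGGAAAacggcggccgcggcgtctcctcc
POLA1: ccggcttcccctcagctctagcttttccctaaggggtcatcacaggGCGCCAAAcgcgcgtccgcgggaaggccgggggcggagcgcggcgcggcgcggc
POLA2: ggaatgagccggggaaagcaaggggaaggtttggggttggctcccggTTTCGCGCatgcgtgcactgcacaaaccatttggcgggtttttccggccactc
UNG: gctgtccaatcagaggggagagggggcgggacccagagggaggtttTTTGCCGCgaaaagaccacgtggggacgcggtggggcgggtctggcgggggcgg

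The stretches of CDC25A, CDC7, GINS2 and POLA2 end at the last base before the start, and those of POLA1 and UNG end at positions -84 and -10 from it. The stretch of CDC7 holds 2 matches that face each other, and the other 5 stretches hold 1 each. A match describes the letters and does not show that a factor binds there. Of the 12 members that fell with 4OHT both without and with E2 in PEO1, 7 hold a match (the 6 shown and CDC6, whose match lies after the start), as do 13 of the 26 other members with a window. The E2F letters were therefore about as frequent among the members that did not pass in both comparisons, and the difference was not tested.

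Changes are differences of mean log2 levels ± SE, with 4 arrays in each group, and a gene was called where its limma p, adjusted by Benjamini-Hochberg over the 11963 genes, was under 0.05. The labels do not say that replicates were separate cultures, so p-values measure only the spread between these arrays, and array number limits the precision. Where groups are said not to overlap, this describes single genes, mostly ones already called from the same values. Its share over all genes was not counted, so it adds no support to a call. In bulk RNA, fewer cells in a phase and less RNA per cell cannot be told apart. The median gene of an array stood at 7.41 to 7.49 in PEO1 but 7.85 to 7.92 in PEO4, so levels were not compared between the lines. PEO4 array 1 of the ICI group and array 4 of the 0 h group stood apart in RNA quality. Their ACTB 3′ probe set exceeded the 5′ one by 3.41 and 2.28 (log2), where the other arrays of those groups reached at most 0.92 and 0.64. PEO4 array 4 with 4OHT and E2 stood at 1.74 and was kept. Results that rest on the ICI and 0 h arrays are also given without both. As a check of the treatments, GREB1, an estrogen-induced gene, rose with E2 by 1.97 in PEO1 and 1.69 in PEO4 and fell when 4OHT was added to E2, with changes of -2.65 in PEO1 and -1.82 in PEO4. With 4OHT alone its changes were -0.83 in PEO1, where it fell, and -0.09 in PEO4, where it was not called. With ICI alone they were -0.77, also a fall, and 0.00, not called, and with ICI added to E2 it fell in both lines (-2.30 and -1.48). Between 0 h and vehicle GREB1 rose in PEO1 (0.60) and was measured at -0.41 in PEO4 (adjusted p = 0.0502), while ESR1, the estrogen receptor gene, fell in both (-0.22 and -0.28). ESR1 also fell with 4OHT alone (-0.13 in PEO1 and -0.22 in PEO4). All 9 markers of Muellerian epithelium stood above the median gene in both lines, as did 1 of 9 markers of other cell types in PEO1 and 0 of 9 in PEO4.

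By their median, the 42 genes stood lower on the PEO1 arrays at 0 h or with 4OHT than on the other arrays of that line. For each array, the median over the members of the deviation from the vehicle mean was taken, as a description. In PEO1 it lay between -0.02 and 0.03 on the 4 vehicle arrays, between -0.02 and 0.03 with E2, between -0.03 and -0.01 with ICI and between -0.03 and 0.04 with ICI and E2. It lay lower, between -0.10 and -0.09, on the 0 h arrays, between -0.18 and -0.07 with 4OHT and between -0.15 and -0.08 with 4OHT and E2. The latter 3 groups overlapped each other and none of the other 4. In PEO4 the 4OHT arrays lay between -0.10 and -0.02 and those with 4OHT and E2 between -0.12 and -0.02, both overlapping the vehicle arrays (-0.05 to 0.04), and the 0 h arrays lay between -0.01 and 0.03. With the arrays quantile normalized, the PEO1 ranges were -0.11 to -0.05 with 4OHT, -0.11 to -0.06 with 4OHT and E2, -0.08 to -0.06 at 0 h and -0.01 to 0.01 for vehicle.

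**Figure D1:**
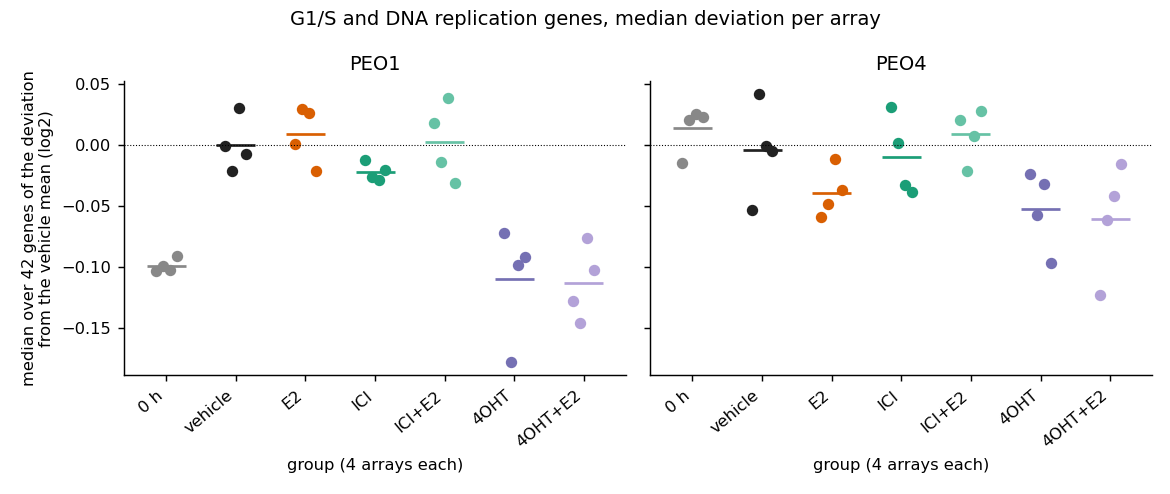
Median over the 42 genes of each array's deviation (log2) from the vehicle mean of its line, with 1 point per array, a bar at the mean of the 4 arrays and a panel per line. In PEO1 the 0 h arrays, the 4OHT arrays and the arrays with 4OHT and E2 lie at -0.07 or lower, below all other arrays of that line.

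The first comparison set cells after 3 h with vehicle against cells at 0 h, so that the ethanol and the elapsed time cannot be told apart. In PEO1, 12 of the 42 genes rose between 0 h and vehicle and 0 fell, against 5.79 percent of all genes that rose. The genes that rose include CDC25A, cyclin E1, the licensing factors ORC1 and CDC6 and their inhibitor geminin. The members' median change was 0.08 against 0.02 over all genes, 37 of the 42 lay above 0, and 19 had an unadjusted p under 0.05. Of all 11963 genes, 2341 had such a p in either direction.

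CDC25A, the phosphatase that activates cyclin E-bound kinase, stood at 8.63, 8.63, 8.45 and 8.60 (log2) at 0 h and at 8.91, 8.91, 8.93 and 8.85 with vehicle. Each vehicle array lay above each 0 h array, and the gene rose by 0.32 ± 0.05 (24.9%, adjusted p = 0.000123). CCNE1, cyclin E1, went from 9.07, 9.14, 9.04 and 9.13 to 9.47, 9.40, 9.33 and 9.31, a rise of 0.28 ± 0.06 (adjusted p = 0.00308). Both partners of the cyclin E step thus stood higher after 3 h without overlap between the groups. ORC1, the ATPase subunit of the origin recognition complex, went from 7.41, 7.52, 7.55 and 7.52 to 7.78, 7.80, 7.83 and 7.71 (0.28 ± 0.05, adjusted p = 0.00149). CDC6, which joins ORC to load the helicase, went from 10.15, 10.11, 10.10 and 10.27 to 10.36, 10.37, 10.42 and 10.37 (0.22 ± 0.05, adjusted p = 0.00914). GMNN encodes geminin, which binds CDT1 and blocks licensing. It stood at 9.89, 9.98, 9.94 and 9.98 at 0 h and at 10.20, 10.17, 10.26 and 10.17 with vehicle (0.25 ± 0.05, adjusted p = 0.00127). SLBP, which binds the stem-loop of histone mRNAs, went from 11.98, 12.05, 12.03 and 12.09 to 12.19, 12.15, 12.23 and 12.21 (0.16 ± 0.03, adjusted p = 0.00423). None of these groups overlapped, in genes that were called from the same values.

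The other 6 genes that rose in PEO1 came from 4 roles. They were MCM7, a helicase subunit (0.21 ± 0.06), ORC6, the smallest ORC subunit (0.15 ± 0.04), GINS2, a subunit of the active helicase (0.15 ± 0.04), the flap nuclease FEN1 (0.14 ± 0.04), RRM1, the large subunit of ribonucleotide reductase (0.16 ± 0.05), and UNG, which removes uracil from DNA (0.16 ± 0.04). By role, 5 of 12 licensing genes rose, 2 of 6 for G1/S control, 1 of 4 for helicase activation, 0 of 5 polymerases, 1 of 7 for clamp and fork, 2 of 5 for nucleotide supply and 1 of 3 for histones and chromatin. The further probe sets of CDC25A, CDC6 and MCM7 changed by 0.20, 0.05 and 0.09, and those of FEN1 and RRM1 by 0.14 and 0.20. The 30 members that were not called changed by between -0.06 and 0.19. CDC25A, CCNE1, GMNN and ORC1 were called in all 15 alternative fits of this comparison. The count fell to 7 when vehicle array A or C, or 0 h array A or C, was left out, and to 6 in a fit of the compared groups alone.

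**Figure D2:**
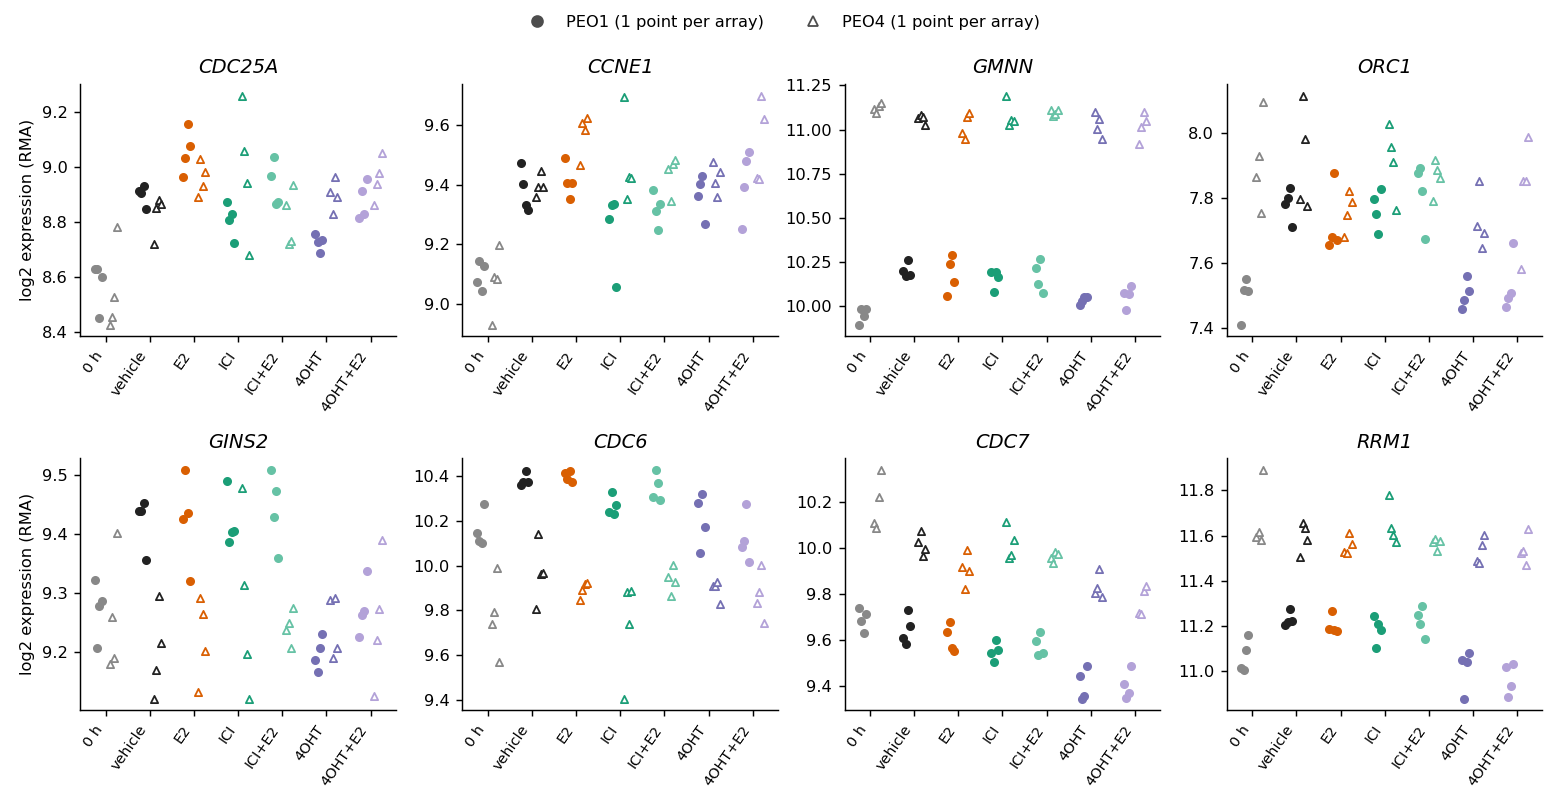
Log2 levels of 8 of the genes on every array, by treatment group, with PEO1 as filled circles and PEO4 as open triangles (levels are not comparable between the lines). In PEO1 the 0 h and 4OHT arrays of ORC1 and the 4OHT arrays of GINS2 and CDC7 lie below the vehicle arrays, while CCNE1 lies below the vehicle arrays on all 4 arrays at 0 h and overlaps them with 4OHT, and ICI array D (9.06) lies in its 0 h range.

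The next comparisons asked how E2 and the pure antagonist changed these genes within 3 h. In PEO1, E2 changed 0 of the 42 genes by limma, against 2.09 percent of all genes in either direction, and 1 member lay higher and 1 lower at an unadjusted p under 0.05. CDC25A came nearest, at 8.96, 9.03, 9.16 and 9.08 with E2, each above the vehicle arrays, a change of 0.16 ± 0.05 (adjusted p = 0.111). ICI alone changed 0 of the 42, against 0.134 percent, with 4 members lower at an unadjusted p under 0.05. POLA1, the catalytic subunit of the polymerase that starts each new strand, had the smallest adjusted p (0.891) with a change of -0.11 ± 0.04. ICI added to E2 also changed 0 of the 42, against 2.50 percent, with 1 member higher and 2 lower at an unadjusted p under 0.05, and POLA1 again had the smallest adjusted p (0.256, change -0.11 ± 0.04). Of all 11963 genes, 1380, 558 and 1191 had an unadjusted p under 0.05 in either direction with E2, ICI and ICI added to E2. The 95% intervals of the members reached from -0.20 to 0.27 for E2, from -0.25 to 0.34 for ICI and from -0.26 to 0.27 for ICI with E2.

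4OHT lowered many of these genes in PEO1, across most of their roles. Against vehicle, 15 of the 42 fell and 0 rose, where 4.83 percent of all genes fell. Against E2, 4OHT with E2 gave 15 lower and 0 higher, where 8.48 percent of all genes fell. These comparisons share no array, though 1 fit gave the spread for both, and the same 12 genes were called in each: CDC6, ORC1, CDC25A, CDC7, GINS2, MCM10, POLA1, POLA2, PRIM1, FEN1, RRM1 and UNG. How many of all genes fell in both comparisons was not counted, so the overlap of 12 has no background beside it. The members' median change was -0.12 in each, against -0.03 over all genes without E2 and -0.01 with it. Of the 42 genes, 39 lay below 0 without E2 and 40 with it, and 24 and 23 lay lower at an unadjusted p under 0.05. Such a p was found in either direction for 2627 and 3249 of all 11963 genes. The changes were small, at most 17.4% for the genes called without E2.

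**Figure D3:**
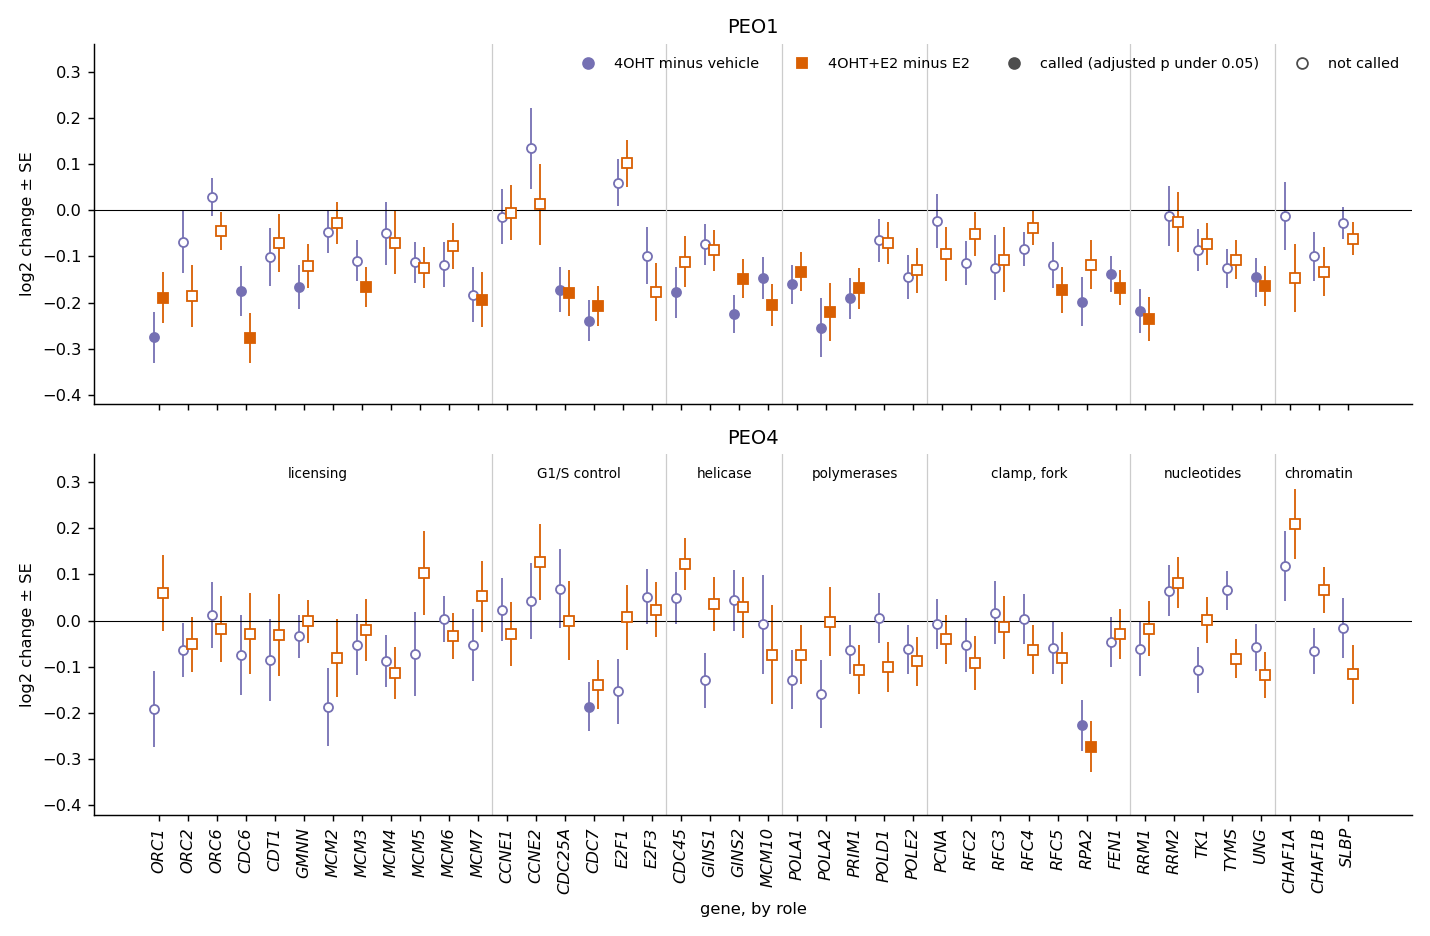
Log2 change ± SE of each of the 42 genes, ordered by role, for 4OHT minus vehicle (circles) and 4OHT with E2 minus E2 (squares), filled where called, with PEO1 in the upper and PEO4 in the lower panel. In PEO1, 39 and 40 genes lie below 0, and in PEO4 RPA2 and CDC7 are the only called genes.

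Of the 12 licensing genes, 3 fell with 4OHT and 4 with 4OHT and E2. ORC1 stood at 7.46, 7.49, 7.56 and 7.51 with 4OHT, below the vehicle arrays given above, and fell by 0.28 ± 0.05 (adjusted p = 0.00235). With 4OHT and E2 it stood at 7.47, 7.49, 7.51 and 7.66 against 7.66, 7.68, 7.88 and 7.67 with E2 (-0.19 ± 0.05, adjusted p = 0.0227), where the highest of the former met the lowest of the latter. The levels with 4OHT lay within or near the range of the 0 h arrays. CDC6 stood at 10.28, 10.06, 10.32 and 10.17 with 4OHT, a change of -0.18 ± 0.05 that just passed (adjusted p = 0.0499). With E2 present the groups stood further apart, at 10.08, 10.11, 10.28 and 10.02 with 4OHT and at 10.42, 10.39, 10.42 and 10.37 without it (-0.28 ± 0.05, adjusted p = 0.001). Geminin, the licensing inhibitor, fell with 4OHT by 0.17 ± 0.05 (adjusted p = 0.0345), with 10.00, 10.03, 10.05 and 10.05 on the arrays, and changed by -0.12 with E2 present (adjusted p = 0.0934). Among the 6 subunits of the MCM ring, MCM3 (-0.17 ± 0.04) and MCM7 (-0.19 ± 0.06) fell with 4OHT and E2. The other MCM subunits changed by between -0.12 and -0.03 in both comparisons, with MCM3 at -0.11 and MCM7 at -0.18 without E2. ORC2 (-0.07 and -0.19), ORC6 (0.03 and -0.05) and the loader CDT1 (-0.10 and -0.07) did not pass in either.

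Of the 6 genes that control the G1/S step, CDC7 and CDC25A fell in both comparisons. CDC7, the kinase that phosphorylates the loaded MCM ring, stood at 9.61, 9.58, 9.73 and 9.66 with vehicle and at 9.44, 9.34, 9.35 and 9.49 with 4OHT (-0.24 ± 0.04, adjusted p = 0.00106). Adding 4OHT to E2 took it from 9.63, 9.68, 9.57 and 9.55 to 9.41, 9.35, 9.37 and 9.48 (-0.21 ± 0.04, adjusted p = 0.00212). Neither pair of groups overlapped, and the 4OHT arrays also lay below the 0 h arrays (9.74, 9.68, 9.63 and 9.71). CDC25A stood at 8.76, 8.73, 8.69 and 8.73 with 4OHT (-0.17 ± 0.05, adjusted p = 0.0344) and at 8.81, 8.91, 8.83 and 8.95 with 4OHT and E2 (-0.18 ± 0.05, adjusted p = 0.0166). Cyclin E1 was measured at -0.01 in both, with 9.36, 9.40, 9.43 and 9.27 on the 4OHT arrays, which overlapped the vehicle arrays. Its relative CCNE2 (0.13 and 0.01) and the transcription factors E2F1 (0.06 and 0.10) and E2F3 (-0.10 and -0.18) were not called.

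Of the 4 helicase activation genes, 3 fell with 4OHT and 2 with 4OHT and E2. GINS2 had vehicle values of 9.44, 9.44, 9.45 and 9.36 and 4OHT values of 9.19, 9.17, 9.21 and 9.23, with a gap between the groups (-0.22 ± 0.04, adjusted p = 0.00127). With E2 present it stood at 9.23, 9.26, 9.27 and 9.34 with 4OHT and at 9.43, 9.51, 9.44 and 9.32 without (-0.15 ± 0.04, adjusted p = 0.02), and the groups overlapped through E2 array D. MCM10, which helps open the origin, fell by 0.15 ± 0.05 without E2, with overlapping groups, and by 0.20 ± 0.05 with E2. CDC45, the partner of MCM and GINS in the moving helicase, fell by 0.18 ± 0.05 without E2 (adjusted p = 0.0498) and changed by -0.11 with it. GINS1, another GINS subunit, changed by -0.07 and -0.09 and was not called.

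Of the 5 polymerase genes, the 3 that belong to the primase-polymerase alpha complex fell in both comparisons. PRIM1, the primase subunit that makes the RNA primer, went from 10.69, 10.73, 10.70 and 10.70 with vehicle to 10.52, 10.56, 10.43 and 10.55 with 4OHT (-0.19 ± 0.04, adjusted p = 0.00979). POLA2, the accessory subunit, went from 9.91, 9.81, 9.79 and 9.83 to 9.65, 9.46, 9.63 and 9.58 (-0.25 ± 0.06, adjusted p = 0.0159). In each gene all 4OHT arrays lay below all vehicle arrays. With E2 present, PRIM1 fell by 0.17 ± 0.04 and POLA2 by 0.22 ± 0.06, both with overlapping groups. The catalytic subunit POLA1 fell by 0.16 ± 0.04 and 0.13 ± 0.04. POLD1, the catalytic subunit of the lagging strand polymerase, changed by -0.07 in each, and POLE2, a subunit of the leading strand polymerase, by -0.14 and -0.13, and neither was called.

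Of the 7 clamp and fork genes, FEN1 fell in both comparisons, by 0.14 ± 0.04 and 0.17 ± 0.04. RPA2, a subunit of the protein that coats single-stranded DNA, fell by 0.20 ± 0.05 without E2, with overlapping groups, and RFC5, a clamp loader subunit, by 0.17 ± 0.05 with E2. PCNA, the clamp itself (-0.02 and -0.09), and the loader subunits RFC2 (-0.11 and -0.05), RFC3 (-0.12 and -0.11) and RFC4 (-0.08 and -0.04) were not called. Of the 5 genes of nucleotide supply and base repair, RRM1 and UNG fell in both. RRM1 stood at 11.21, 11.22, 11.27 and 11.22 with vehicle and at 11.05, 10.88, 11.04 and 11.08 with 4OHT (-0.22 ± 0.05, adjusted p = 0.00575). Adding 4OHT to E2 took it from 11.19, 11.27, 11.18 and 11.18 to 11.02, 10.89, 10.94 and 11.03 (-0.24 ± 0.05, adjusted p = 0.00138). The other ribonucleotide reductase gene of the list, RRM2, the small subunit, was measured at -0.01 and -0.02, so the 2 subunits of 1 enzyme differed in their calls, a difference that was not tested. UNG fell by 0.15 ± 0.04 and 0.16 ± 0.04, while the thymidine kinase TK1 (-0.09 and -0.07) and the thymidylate synthase TYMS (-0.13 and -0.11) were not called. None of the 3 histone and chromatin genes passed: the chromatin assembly subunits CHAF1A (-0.01 and -0.15) and CHAF1B (-0.10 and -0.13), and SLBP (-0.03 and -0.06).

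Of the genes that fell, CDC25A, CDC6, MCM7, FEN1, RRM1 and RFC5 have further probe sets. Those of CDC25A, CDC6 and MCM7 changed less in most of these comparisons. The further probe set gave -0.03 for CDC25A and -0.02 for CDC6 with 4OHT alone. With E2 present it gave -0.18 and -0.11, and that of MCM7 gave -0.03. Those of FEN1 and RRM1 changed by -0.11 and -0.20 with 4OHT alone. With E2 present they changed by -0.17 and -0.39, and those of RFC5 reached -0.25. Without E2 the call of CDC25A was kept in 6 of 15 alternatives and that of CDC6 in 5, and the call of MCM7 with E2 in 7.

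CDC7, GINS2 and ORC1 were called in all 15 alternative fits of 4OHT against vehicle, and CDC6 and RRM1 in all 15 of 4OHT with E2 against E2. Under quantile normalization, which turned the split over all genes from 230 higher and 578 lower to 312 and 277 without E2, 6 members were lower (ORC1, CDC7, GINS2, POLA2, PRIM1 and RRM1), with a median of -0.08 against -0.01 over all genes. With E2 the split turned from 510 and 1015 to 596 and 661, and 7 members were lower (ORC1, CDC6, CDC7, MCM10, FEN1, RRM1 and UNG), with a median of -0.08 against 0.00. A fit of the compared groups alone called 4 and 2 members. The count against vehicle fell to 6 without vehicle array A or C or 4OHT array B, and that against E2 to 8 without E2 array C or array A or B with 4OHT and E2.

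4OHT and ICI, which differ in chemical class as described above, were set against each other at 1 µM and 3 h. In PEO1, 4 of the 42 genes were lower with 4OHT than with ICI, against 2.06 percent of all genes. ORC1 stood at 7.80, 7.75, 7.69 and 7.83 with ICI and differed by -0.26 ± 0.05 (95% interval -0.37 to -0.15, adjusted p = 0.00516). GINS2 stood at 9.49, 9.39, 9.40 and 9.41 with ICI and differed by -0.22 ± 0.04 (-0.31 to -0.14, adjusted p = 0.00196). PRIM1 stood at 10.74, 10.68, 10.73 and 10.63 and differed by -0.18 ± 0.04 (-0.27 to -0.09, adjusted p = 0.0192). RRM1 was the fourth (-0.17 ± 0.05, -0.27 to -0.07, adjusted p = 0.0399), and its other probe set differed by -0.09. In all 4 genes, which were called from these same values, every 4OHT array lay below every ICI array. The intervals of the 38 members not called reached from -0.28 to 0.24, and those of 14 of them lay below 0. The members' median difference was -0.09 against -0.02 over all genes, and 18 members lay lower at an unadjusted p under 0.05. Over all 11963 genes, 2319 had such a p in either direction. GINS2 and ORC1 were called in all 15 alternatives. The count was 2 without ICI array A or C or 4OHT array C, and 7 without 4OHT array D.

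With E2 present in both groups, 11 of the 42 were lower with 4OHT than with ICI in PEO1, against 2.64 percent. RRM1 stood at 11.25, 11.21, 11.29 and 11.14 with ICI and E2 and differed by -0.25 ± 0.05 (95% interval -0.35 to -0.16, adjusted p = 0.00201). ORC1 stood at 7.88, 7.89, 7.82 and 7.67 and differed by -0.28 ± 0.05 (-0.40 to -0.17, adjusted p = 0.00246), and CDC6, at 10.31, 10.43, 10.37 and 10.29, by -0.23 ± 0.05 (adjusted p = 0.015). No array with 4OHT and E2 reached those with ICI and E2 in these genes. The other 8 were the helicase subunits MCM5 (-0.18 ± 0.04), MCM6 (-0.18 ± 0.05) and MCM7 (-0.21 ± 0.06), CDC7 (-0.18 ± 0.04), GINS2 (-0.17 ± 0.04), PRIM1 (-0.18 ± 0.04), FEN1 (-0.14 ± 0.04) and UNG (-0.17 ± 0.04). The other probe sets of CDC6 and MCM7 changed by -0.04 and -0.05, and those of MCM5, FEN1 and RRM1 by -0.16, -0.11 and -0.29. The intervals of the 31 members not called reached from -0.30 to 0.22. This count moved with single arrays, to 4, 6 and 3 without array A, B and C with ICI and E2, and to 5 and 3 without array A and B with 4OHT and E2. It was 4 under quantile normalization and 0 in a fit of the compared groups alone.

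The vehicle arrays enter both the 0 h and the 4OHT comparison, so 4OHT was also set against 0 h directly, a comparison chosen after values were seen. In PEO1, 3 members were higher with 4OHT than at 0 h, against 5.28 percent of all genes, and 3 lower, against 4.88 percent, and the members' median was -0.03 against -0.01 over all genes. CCNE1 (0.27 ± 0.06), ORC6 (0.17 ± 0.04) and SLBP (0.13 ± 0.03) were higher with 4OHT than at 0 h. CDC7 (-0.29 ± 0.04), POLA2 (-0.24 ± 0.06) and the clamp loader subunit RFC4 (-0.13 ± 0.04) were lower. Cyclin E1 and SLBP thus stood above their 0 h level with 4OHT as with vehicle, and CDC7 stood below it. Under quantile normalization, and with array weights, 10 members were called in this comparison.

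In PEO4 fewer of the genes were called. The ACTB 3′ minus 5′ value ran from 0.24 to 3.41 on the PEO4 arrays and from -0.25 to 0.14 on the PEO1 arrays. The members' median SE was 0.059 in PEO4 and 0.049 in PEO1. The part of these differences in the lower counts was not tested. Over 3 h in vehicle, 2 rose, against 3.74 percent of all genes, and 1 fell, against 2.57 percent. CCNE1 went from 8.93, 9.09, 9.08 and 9.20 at 0 h to 9.36, 9.39, 9.45 and 9.39 (0.32 ± 0.07, adjusted p = 0.00298), without overlap, as in PEO1. CDC25A went from 8.43, 8.46, 8.53 and 8.78 to 8.72, 8.85, 8.88 and 8.86, with overlapping groups (0.28 ± 0.09, adjusted p = 0.048). The highest of these 0 h values belongs to array 4, which stood apart in RNA quality, and without both such arrays the rise was 0.36 (adjusted p = 0.00125). The other probe set of CDC25A changed by 0.16. CDC7 went from 10.11, 10.09, 10.22 and 10.34 to 10.03, 10.08, 9.97 and 10.00 (-0.17 ± 0.05, adjusted p = 0.0464), and without both arrays its change was -0.12 (adjusted p = 0.125). CCNE1 was called in all 16 alternatives of this comparison, and the count was 1 without 0 h array 3 or vehicle array 2, 3 or 4 and 6 with array weights. The members' median was -0.02, as over all genes, and 16 of the 42 lay above 0.

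**Figure D4:**
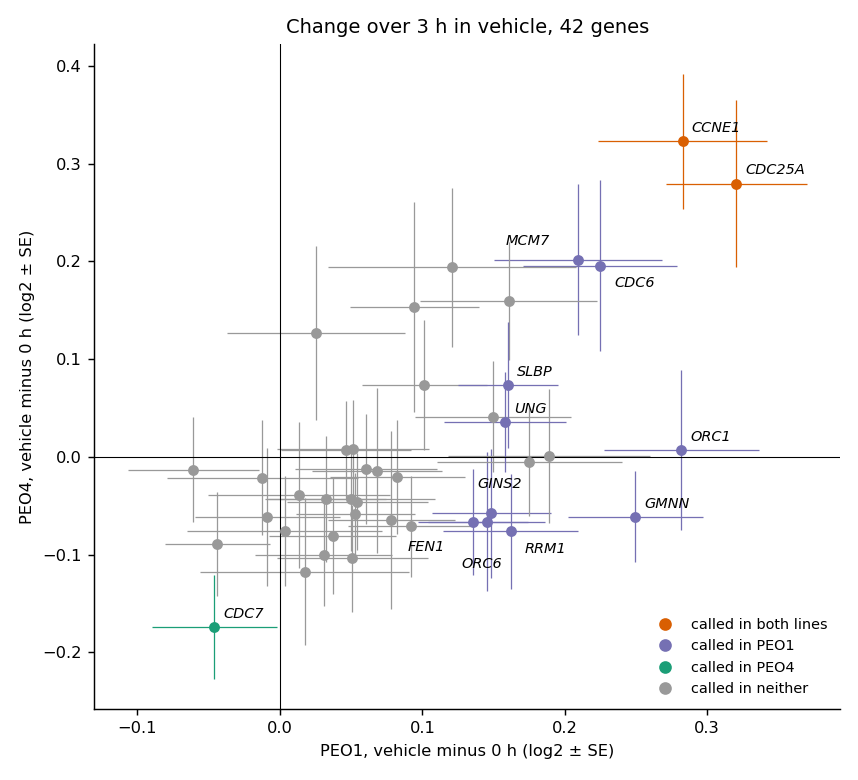
Log2 change ± SE of the 42 genes between 0 h and 3 h of vehicle, with PEO1 on the x axis and PEO4 on the y axis, and the called genes named and coloured by line. CCNE1 and CDC25A rose in both lines, while GMNN and ORC1 rose in PEO1 by 0.25 and 0.28 and were measured at -0.06 and 0.01 in PEO4.

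E2 changed 0 of the 42 genes in PEO4 by limma, against 2.12 percent in either direction, with 1 member higher and 2 lower at an unadjusted p under 0.05. CCNE1 had the smallest adjusted p (0.353, change 0.17 ± 0.07). ICI changed 0, against 0.159 percent, with 3 lower at an unadjusted p under 0.05, and ORC2 had the smallest adjusted p (0.163, change -0.16 ± 0.06). Of all 11963 genes, 1066 with E2 and 2097 with ICI had an unadjusted p under 0.05 in either direction. ICI array 1 stood apart in RNA quality, without it and 0 h array 4 the count for ICI was again 0, and without ICI array 4 it was 1. With array weights, which give less weight to arrays of larger residuals, 8 members were called for ICI, 1 higher and 7 lower. ICI added to E2 raised 1 member, against 0.610 percent. This was CHAF1A, the large subunit of chromatin assembly factor 1, which went from 9.13, 9.04, 9.03 and 8.98 to 9.35, 9.40, 9.40 and 9.28 (0.32 ± 0.08, adjusted p = 0.019). The groups did not overlap, but its 3 probe sets changed by between 0.03 and 0.32, and their median gave 0.03 (adjusted p = 0.887). The count was also 0 without E2 array 2, 3 or 4 or array 1, 2 or 3 with ICI and E2, and 3 with array weights.

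With 4OHT, 2 of the 42 genes fell in PEO4, against 2.75 percent of all genes. RPA2 stood at 10.18, 10.23, 10.19 and 10.20 with vehicle and at 9.97, 9.93, 10.00 and 10.00 with 4OHT (-0.23 ± 0.06, adjusted p = 0.0123). CDC7 stood at 9.80, 9.82, 9.91 and 9.79 with 4OHT (-0.19 ± 0.05, adjusted p = 0.0346). Neither gene's groups overlapped. With 4OHT and E2 against E2, RPA2 was the 1 gene that fell, against 2.16 percent, from 10.25, 10.29, 10.23 and 10.19 to 9.83, 9.95, 10.10 and 9.99 (-0.27 ± 0.06, adjusted p = 0.00167). CDC7 then stood at 9.72, 9.71, 9.81 and 9.84 and changed by -0.14 (adjusted p = 0.147), and it was called without both arrays of low RNA quality. RPA2 was called in all 16 alternatives of both comparisons. CDC7's call against vehicle was less stable, and the count was 1 without vehicle array 1, 2 or 4 or 4OHT array 1, 2 or 4. Array weights gave 4 without and 3 with E2. The members' medians were -0.05 without E2 and -0.03 with it, against 0.00 over all genes in each. Several genes that fell in PEO1 stood near 0 in PEO4, among them GINS2 (0.04 and 0.03), CDC25A (0.07 and 0.00), RRM1 (-0.06 and -0.02) and CDC6 (-0.07 and -0.03). ORC1 was measured at -0.19 without and 0.06 with E2.

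4OHT against ICI gave 0 called members in PEO4 by limma, where 2.33 percent of all genes were called, with 1 higher and 5 lower at an unadjusted p under 0.05. An unadjusted p under 0.05 was found for 1916 of all 11963 genes in either direction. CDC7 came nearest (-0.19, 95% interval -0.30 to -0.08, adjusted p = 0.0547), and the members' intervals reached from -0.36 to 0.41. The count was 0 without both arrays of low RNA quality and 1 without ICI array 2 or 4OHT array 3, but 6 with array weights, 2 higher and 4 lower. With E2 in both groups, 2 members were lower with 4OHT, against 1.44 percent. TYMS, which makes thymidylate, stood at 12.33, 12.26, 12.27 and 12.31 with ICI and E2 and at 12.18, 12.22, 12.10 and 12.05 with 4OHT and E2 (-0.15 ± 0.04, 95% interval -0.24 to -0.07, adjusted p = 0.0315). Its values of 12.10 and 12.05 came from arrays 3 and 4, whose ACTB 3′ minus 5′ values were 1.07 and 1.74. The other probe set of TYMS changed by -0.09, and its call was kept in 8 of 16 alternatives. CDC7 stood at 9.96, 9.93, 9.99 and 9.97 with ICI and E2 and differed by -0.19 ± 0.05 (-0.30 to -0.08, adjusted p = 0.0323). Neither gene's groups overlapped. Without both arrays of low RNA quality, which are in neither group but add to the fitted spread, 8 members were called, namely MCM4, CDC7, POLE2, PCNA, RFC4, RFC5, RPA2 and TYMS. The count was 1 without array 1 or 2 with ICI and E2 or array 1, 2 or 4 with 4OHT and E2, and 0 without array 3 or 4 with ICI and E2, while array weights gave 8, all lower.

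Set against 0 h, 4OHT gave 4 higher and 6 lower members in PEO4, where 7.87 percent of all genes were higher and 9.10 percent lower. CDC7 (-0.36 ± 0.05), RPA2 (-0.33 ± 0.06) and the GINS subunit GINS1 (-0.21 ± 0.06) were lower, and CCNE1 (0.35 ± 0.07), CDC25A (0.35 ± 0.09) and the activator E2F3 (0.21 ± 0.06, with overlapping groups) were higher. E2F1 (-0.21), MCM4 (-0.16), POLE2 (-0.16) and CCNE2 (0.24) were also called. Without both arrays of low RNA quality 10 members were called, among them POLA1 and PRIM1 in place of E2F1 and POLE2. MCM4 rests on its probe set, since its probe sets changed by between -0.16 and 0.16. The other probe sets of CCNE2, E2F3, CDC25A and E2F1 changed by 0.92, 0.40, 0.11 and -0.06, so these sizes also depend on the probe set. The count was 6 without 4OHT array 2 or 4 and 17 with array weights. Cyclin E1 above and CDC7 below their 0 h levels were thus called with 4OHT in both lines.

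Differences between the lines were tested in 1 fit over all 56 arrays. Geminin was the 1 member whose change over 3 h in vehicle differed between the lines, against 1.36 percent of all genes that were lower in PEO4. It stood at 11.12, 11.10, 11.13 and 11.15 at 0 h and at 11.07, 11.08, 11.07 and 11.03 with vehicle in PEO4, where each vehicle array lay below each 0 h array, the opposite order to PEO1. Within PEO4 alone geminin was not called over 3 h in vehicle. The PEO4 change minus the PEO1 change was -0.31 ± 0.06 (95% interval -0.44 to -0.18, adjusted p = 0.00211), and geminin was called in all 24 alternatives, at -0.32 to -0.26. RRM1 came next (-0.24, adjusted p = 0.0856). Without PEO4 0 h array 1 or 3, or with array weights, the count was 2.

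With all arrays weighted alike, limma called no member's response to E2, ICI or 4OHT as different between the lines. The counts were 0 for E2 against 0.493 percent, 0 for ICI against 0.100 percent, 0 for 4OHT against 1.26 percent, 0 for 4OHT added to E2 against 1.97 percent and 0 for 4OHT against ICI, where 0.443 percent of all genes were called. At an unadjusted p under 0.05 these comparisons gave, in that order, 0, 2, 6, 12 and 10 members with a higher and 2, 1, 1, 1 and 1 with a lower difference in PEO4. Of all 11963 genes, 725, 1159, 1741, 1749 and 1594 had such a p in either direction, in the same order. For 4OHT, 34 of the 42 differences were above 0, with GINS2 at 0.27 (95% interval 0.11 to 0.43, adjusted p = 0.066) and TYMS at 0.19 (adjusted p = 0.0733) nearest to the threshold. For 4OHT added to E2, 33 were above 0, with CHAF1A nearest at 0.36 (0.14 to 0.57, adjusted p = 0.0679). The members' median differences for 4OHT and for 4OHT added to E2 were 0.07 and 0.09, against 0.03 and 0.02 over all genes. Under quantile normalization, 28 and 27 members were above 0, with a median of 0.03 in each against 0.00 over all genes. The fall of 15 genes in PEO1 and of 2 or 1 in PEO4 therefore does not by itself show that the lines differed gene by gene. The count for 4OHT was 1 without PEO1 4OHT array A or D or PEO4 vehicle array 3, and that for 4OHT added to E2 was 2 without PEO1 array C with 4OHT and E2. Leaving out both PEO4 arrays of low RNA quality gave 2 in each. With array weights, 7 members differed for 4OHT added to E2, 2 for 4OHT, 1 for ICI and 2 for 4OHT against ICI, all higher in PEO4, so these counts of 0 depend on that setting.

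Other genes of the pathway were read from a list of 35 further replication genes, 32 of them measured, and 26 further genes of G1/S control, 25 of them measured. Between 0 h and vehicle in PEO1, 3 of the 32 replication genes rose: GINS4, a GINS subunit (0.29), TIPIN, which protects the fork (0.21), and the polymerase epsilon subunit POLE3 (0.19). Of the 25 control genes 6 rose, led by the growth regulator MYC (0.28), E2F5 (0.40) and E2F6 (0.25), and 0 fell. Over all genes 5.79 percent rose in that comparison. With 4OHT in PEO1, 5 of the 32 fell, led by RPA1, the large subunit of the single-strand binding protein (-0.18), ORC3 (-0.17) and ORC5 (-0.17). With 4OHT and E2, 8 fell, led by ORC3 (-0.25), the polymerase alpha tether WDHD1 (-0.29) and RPA1 (-0.17). Of all genes, 4.83 percent fell with 4OHT and 8.48 percent with 4OHT and E2. Of the 25 control genes 4 fell with 4OHT, led by SKP2, which marks the inhibitor p27 for destruction (-0.32), the cyclin D partner CDK4 (-0.20) and the E2F partner TFDP1 (-0.16). CDKN1A, which encodes the kinase inhibitor p21, was the 1 gene of that list that rose (0.29). With 4OHT and E2, 6 fell and 4 rose, led by MYC (-0.39), E2F6 (-0.32) and CDKN1A (0.41). Of all 11963 genes, 230 rose with 4OHT and 510 with 4OHT and E2. In PEO4, CDKN1A (0.56) and MYC (0.53) rose with 4OHT, and with 4OHT and E2 CDKN1A rose (0.90) and MYC fell (-0.43). CDKN1A thus rose in all 4 of these comparisons.

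Genes of mitosis fell along with the members in the 4OHT comparisons of PEO1 and did not follow them between 0 h and vehicle. Of 21 such genes, 10 fell with 4OHT in PEO1, led by the kinase AURKA (-0.29), the checkpoint kinase BUB1B (-0.30) and the proliferation marker MKI67 (-0.23), and 13 fell with 4OHT and E2, led by AURKA (-0.31), the centromere histone CENPA (-0.35) and MKI67 (-0.30). Over all genes 4.83 and 8.48 percent fell in these comparisons. The medians of the 21 genes were -0.17 and -0.18, against -0.12 for the 42 members in each. Between 0 h and vehicle, 2 of the 21 rose in PEO1, AURKA (0.19) and CENPA (0.18), where 5.79 percent of all genes rose. In PEO4, 6 fell, led by KIF20A (-0.21), BUB1B (-0.24) and NUSAP1 (-0.21), where 2.57 percent of all genes fell. The median of the 21 over 3 h in vehicle was 0.00 in PEO1, where that of the members was 0.08, and -0.12 in PEO4, where that of the members was -0.02. In PEO4, 2 fell with 4OHT, BUB1B (-0.17) and CENPE (-0.18), and 0 with 4OHT and E2, against 2.75 and 2.16 percent of all genes. The part of these genes in the members' changes was not tested.

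Across arrays the members varied together only loosely once treatment was removed. The median within-group SD over the members was 0.07 (log2) in PEO1 and 0.08 in PEO4, and the median range of the 7 group means was 0.19 and 0.18. The lowest of the 7 group means in PEO1 was that with 4OHT in 15 members, 4OHT with E2 in 14 and 0 h in 12. In deviations from the group mean over 28 arrays, the median Pearson correlation of member pairs was 0.14 in PEO1 and 0.06 in PEO4, against 0.02 and 0.03 over all genes. Such pairs share arrays, RNA and normalization, so these values describe the arrays only. In PEO1 the nucleotide supply genes had the highest median of the 7 roles (0.51) and the G1/S control genes the lowest (-0.14). The pairs with the highest values were RRM2 with SLBP (0.87), ORC6 with SLBP (0.82) and ORC2 with CDC6 (0.81) in PEO1, and ORC2 with MCM10 (0.90) and MCM5 with FEN1 (0.89) in PEO4. The members had 62 probe sets in all. Of 83 calls, 29 were of genes with another probe set, and in 1, MCM4 in PEO4 with 4OHT against 0 h, another probe set had the opposite sign.

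Over the 8 planned comparisons of a line, 23 of the 42 genes were called at least once in PEO1 and 6 in PEO4 (CCNE1, CDC25A, CDC7, CHAF1A, RPA2 and TYMS). The share of all genes called at least once was not counted, so these numbers have no background beside them. The 19 members called in none of the PEO1 comparisons were CCNE2, CDT1, CHAF1A, CHAF1B, E2F1, E2F3, GINS1, MCM2, MCM4, ORC2, PCNA, POLD1, POLE2, RFC2, RFC3, RFC4, RRM2, TK1 and TYMS. PCNA, RRM2 and TK1, widely used as readouts of S phase, were thus among the genes that no PEO1 comparison called.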

How the data were processed

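RNA of 56 samples was hybridised to Affymetrix arrays. The deposited table holds log2 levels that the authors computed with RMA, per the submitters' processing notes; the RMA version is not given in the sources used here. RMA values carry no detection calls. Of 22277 probe sets, 62 were controls, and 19064 had 1 gene symbol, 1043 several and 2108 none in the platform annotation. The brightest probe set by mean over the 56 arrays stood for each of 11963 genes. PEO4 titles write Tam, which the series text defines as 4-hydroxytamoxifen.

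Each line was fitted with limma 3.58.1 in R 4.3.3 over 28 arrays and 7 group means (21 residual degrees of freedom), and differences between lines over 56 arrays. Calls needed a p under 0.05 after Benjamini-Hochberg adjustment over the 11963 genes. On simulated data for PEO1 4OHT minus vehicle with 11963 genes, the fit recovered 10, 32, 70 and 96 percent of genes changed by 0.15, 0.2, 0.3 and 0.5, with 3 false calls of 107. Those data had independent noise and 50 changed genes at each size, where 230 genes were called higher and 578 lower in the real comparison. The shares are therefore a guide only. The members and lists were chosen with earlier results of these data known.

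Values on every array are given for the called members with the smallest adjusted p, at most 3 per comparison and at most 6 for 0 h and 4OHT. Other called members are named with their change, and at most 3 genes of each other list. CDKN1A in PEO1 without E2, and the members compared between lines, were named after their values were seen. Alternatives were the compared groups only, quantile normalization, leaving out the dimmest 40 percent of genes, trend and robust variances, the median of a gene's probe sets, array weights, the replicate label as a block and leaving out each array. Both PEO4 arrays of low RNA quality were also left out together, a choice that rests on values of these data, and the comparison of 4OHT with 0 h was added after the data were seen. Arrays with the same replicate label deviated together (every correlation over 0.1) in 1 of 18 comparisons, so the labels were not taken as pairs.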

Additional observations from a re-analysis of the deposited data

Results flagged for a closer look

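In 7 of 81 groups of 4 arrays, 1 array lay far from the other 3 (8.64%), where chance gives about 1 in 20. In PEO1, CDC25A at 0 h stood at 8.45 on array C against 8.60 to 8.63 on the others. GINS2 with vehicle stood at 9.36 on array D against 9.44 to 9.45, and RRM1 with E2 at 11.27 on array B against 11.18 to 11.19. The members' median deviation on PEO4 0 h array 1 was -0.0148 against 0.0209 to 0.0257. The ACTB 3′ minus 5′ value was 0.0382 on PEO1 ICI array A against -0.16 to -0.13, 2.28 on PEO4 0 h array 4 against 0.50 to 0.64, and 3.41 on PEO4 ICI array 1 against 0.52 to 0.92. GMNN changed differently over 3 h in vehicle in the lines, by -0.31 in PEO4 minus PEO1, with the test given above.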

How the results depend on the processing

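In PEO1 the compared groups alone, and in PEO4 array weights, moved several counts of called members. With only the compared groups in the fit they were 6 instead of 12 (PEO1 vehicle against 0 h), 4 and 2 instead of 15 (4OHT, and 4OHT with E2), 2 instead of 4 (4OHT against ICI), 0 instead of 11 (the same with E2), 3 instead of 6 (4OHT against 0 h), in PEO4 1 instead of 3 (vehicle against 0 h) and 4 instead of 2 (4OHT against ICI with E2), and 1 instead of 0 for the line difference with 4OHT. Fewer arrays leave fewer degrees of freedom there; otherwise the cause was not tested. Quantile normalization gave, for PEO1, 6 and 7 (4OHT without and with E2), 2 and 4 (4OHT against ICI without and with E2) and 10 (4OHT against 0 h), 5 for PEO4 4OHT against ICI with E2, and 1 for the line difference with 4OHT. Leaving out dim genes gave 8 and 11 for PEO1 4OHT against ICI and against 0 h, 1 and 6 for PEO4 4OHT against ICI without and with E2, and 2 for the line difference with 4OHT. Trend and robust variances gave 7 for PEO1 4OHT against ICI and 4 for PEO4 4OHT against ICI with E2. The median of probe sets gave 1 for PEO1 E2, 0 for PEO4 ICI with E2 against E2 and 1 for PEO4 4OHT against ICI with E2, and turned MCM4 in PEO4 4OHT against 0 h to 0.058. Array weights gave 10 for PEO1 4OHT against 0 h. In PEO4 they gave 6 (vehicle against 0 h), 8 (ICI), 4 (4OHT), 3 (ICI with E2 against E2), 3 (4OHT with E2 against E2), 6 and 8 (4OHT against ICI without and with E2) and 17 (4OHT against 0 h). For line differences they gave 2 (vehicle), 1 (ICI), 2 (4OHT), 7 (4OHT with E2) and 2 (4OHT against ICI). Leaving out both PEO4 arrays of low RNA quality gave 2 and 8 for 4OHT with E2 against E2 and against ICI with E2, and 2 for each line difference with 4OHT.

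Leaving out 1 array at a time gave, in PEO1, 7 to 12 (vehicle against 0 h), 6 to 13 (4OHT), 8 to 19 (4OHT with E2), 2 to 7 and 3 to 15 (4OHT against ICI without and with E2) and 5 to 7 (4OHT against 0 h). In PEO4 it gave 1 to 2 (vehicle against 0 h), 0 to 1 (ICI), 1 to 2 (4OHT), 0 to 1 (ICI with E2), 0 to 1 and 0 to 2 (4OHT against ICI without and with E2) and 6 to 9 (4OHT against 0 h). Line differences gave 1 to 2 (vehicle), 0 to 1 (4OHT) and 0 to 2 (4OHT with E2). With the replicate label as a block, PEO1 counts were 12 for vehicle against 0 h, 11 for 4OHT and 16 for 4OHT with E2, and no count moved by over 1.5 times. In PEO4 4OHT against ICI with E2, the comparison whose labels paired, the block gave 3 instead of 2. Of 1273 call checks of single members over the alternatives, 940 kept the call, 332 lost it and 1 turned its sign. In the simulated data, with 4 arrays per group, the fit recovered 32 percent of genes changed by 0.2 (log2). Those data held fewer changed genes than were called for PEO1 4OHT, so the recovery of such changes among the members is not known.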
